A study of Mus musculus with 8 samples.

Results

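The CDK inhibitors of the CIP/KIP class (Cdkn1a, Cdkn1b and Cdkn1c), those of the INK4 class (Cdkn2a, Cdkn2b, Cdkn2c and Cdkn2d) and the retinoblastoma proteins (Rb1, Rbl1 and Rbl2) were followed in RNA-seq libraries of mouse bone marrow progenitors. These 10 genes are defined by symbol, by a rule that uses none of their values, although the set was chosen with earlier results of these data known. All 10 are among the 29955 gene names of each library. LSK cells were sorted as negative for lineage markers and positive for Sca1 and Kit, and hold the hematopoietic stem cells. LK cells are given in the labels as lineage-negative and Kit-positive and in the study also as negative for Sca1, and hold mostly committed myeloid progenitors. Ly6a, the gene of Sca1, was higher in LSK than in LK (log2 difference 6.07, adjusted p = 2.3e-11 from limma). There were 4 groups of 2 libraries, namely WT LSK, Ripk3-KO LSK, WT LK and Ripk3-KO LK. Ripk3-KO mice lack, as their Ripk3-/- genotype states, the kinase that drives necroptosis and inflammatory signaling. The labels give the strain background of all groups as CD57BL6/J, give no age, and state that RNA was taken at once from untreated cells, whereas the study describes mice that had received a weekly series of low-dose X-rays 1 month earlier. No group without irradiation was analysed here if the study's account holds, and irradiation cannot be told apart from anything else that all 4 groups share.

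CDK inhibitors hold back the cyclin-dependent kinases that carry a cell from G1 into S phase. The INK4 proteins bind CDK4 and CDK6 and keep D-type cyclins off them, and the CIP/KIP proteins bind cyclin-CDK complexes more broadly. With the kinases held back, the retinoblastoma protein and its relatives p107 (Rbl1) and p130 (Rbl2) stay hypophosphorylated, bind E2F factors and hold back the genes of DNA replication. In hematopoietic stem cells, p57 (Cdkn1c) and p27 (Cdkn1b) are known for quiescence, p21 (Cdkn1a) for the response of p53 to damage, and p16 (Cdkn2a) for senescence.

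The libraries hold between 9782166 and 16280811 reads, and 1 read was worth between 0.0621 and 0.104 units of signal, the deposited CPM after TMM scaling within LSK or within LK. Ripk3 itself fell in Ripk3-KO LSK (from 165 ± 3.93 to 2.23 ± 1.63 signal, SD, n = 2 each) and in Ripk3-KO LK (from 147 ± 3.90 to 13.4 ± 3.93, SD, n = 2 each). All 4 WT libraries carry Xist and no Y-linked reads, and all 4 Ripk3-KO libraries carry reads of the Y-linked gene Uty, so that genotype and sex of the mice cannot be told apart. Of 6 hematopoietic stem cell markers, 5 were higher in LSK than in LK, and their summed level ran from 467 to 686 in LSK and from 49.3 to 63.4 in LK, while all 6 myeloid progenitor markers were lower in LSK. Mature neutrophil markers rose in Ripk3-KO libraries, 6 of 6 in LSK and 5 of 6 in LK, although the sort leaves out lineage-positive cells. Their summed jointly scaled level was 600 to 658 in WT LSK, 2005 to 2348 in Ripk3-KO LSK, 870 to 880 in WT LK and 1893 to 1906 in Ripk3-KO LK, with no marker at 0, and their part in the genotype results was not tested. The labels do not say whether replicates came from separate mice, so that p-values measure the spread between these libraries, and fewer cells of a type cannot be told apart from less RNA per cell.

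The first question was whether the genes differ between Ripk3-KO and WT LSK cells. Of the 8 genes whose mean signal reached 1 and which were tested, Cdkn1a was the only one that passed, and it was lower in Ripk3-KO. The test was limma on log2(signal + 1) with Benjamini-Hochberg adjustment over all genes, and it called 2.16% of the 16817 genes tested (1.27% as lower). Cdkn1a, which encodes p21, lies on chr17:29090976-29100727 of GRCm38, plus strand. Its signal was 366 and 382 in WT LSK (374 ± 10.9, SD, n = 2) and 165 and 135 in Ripk3-KO LSK (150 ± 21.4, SD, n = 2). Both Ripk3-KO libraries lay below both WT libraries, and the gap was many times the spread within either group. The log2 fold change was -1.32 (SE 0.21, 95% interval -1.76 to -0.88, adjusted p = 0.00103), or 2.50-fold lower in Ripk3-KO. In reads, Cdkn1a held 3688 and 3684 in WT LSK against 2054 and 1379 in Ripk3-KO LSK. An antisense gene, AC167363.2, overlaps it, and the strand used in counting is not given in the sources used here, so that reads of the pair cannot be told apart.

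RefSeq (GRCm38.p6) lists 2 start sites of Cdkn1a, 2790 bases apart. The 250 bases before each are shown because this gene passed the test between genotypes in LSK. Capitals mark matches to the p53 half-site in the upstream window and to the GC box GGGCGG in the downstream window.
Cdkn1a upstream start, chr17:29090729-29090978, plus strand: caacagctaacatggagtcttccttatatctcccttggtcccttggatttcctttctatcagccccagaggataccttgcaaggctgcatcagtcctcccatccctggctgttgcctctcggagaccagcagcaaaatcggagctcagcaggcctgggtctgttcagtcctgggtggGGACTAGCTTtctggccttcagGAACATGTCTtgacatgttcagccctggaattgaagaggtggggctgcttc
Cdkn1a downstream start, chr17:29093519-29093768, plus strand: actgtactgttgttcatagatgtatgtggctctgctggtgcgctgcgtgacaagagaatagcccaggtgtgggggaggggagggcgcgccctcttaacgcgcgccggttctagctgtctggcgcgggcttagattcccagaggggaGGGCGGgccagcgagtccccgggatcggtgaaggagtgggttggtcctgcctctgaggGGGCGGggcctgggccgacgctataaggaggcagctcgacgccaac
Both strands were searched. The upstream window holds 2 p53 half-site matches, which begin 73 and 51 bases before the start, and 7.13% of 32851 promoter windows of this length hold at least 1. The downstream window holds 2 GC boxes, and 32.7% of all windows hold at least 1. Neither window held the E2F sites TTTCCCGC or TTTGGCGC, the E-box CACGTG or the FOXO site GTAAACA. These letters are a description, and the counts per gene do not say which start the reads came from. Of the 10 genes, 8 have a promoter in the table used, and Cdkn1c and Rb1 do not.

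**Figure D1:**
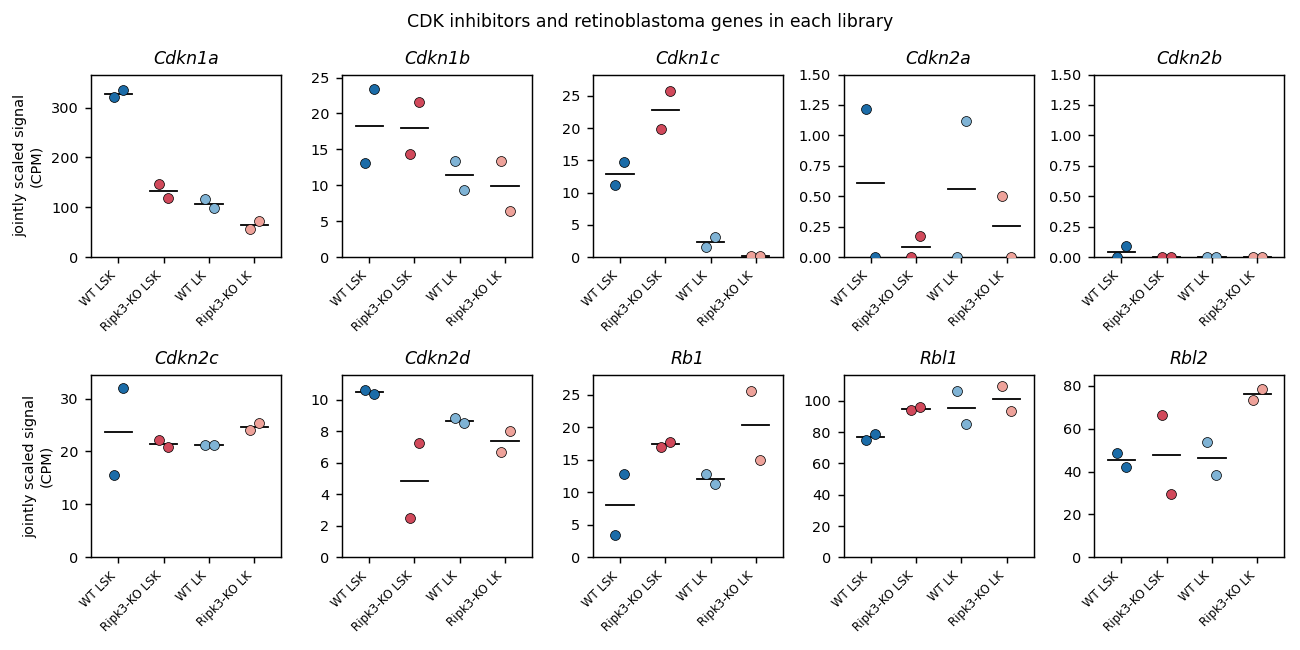
Level of each gene in each library, on the scale set over all 8 libraries (CPM, linear axes that start at 0 and differ between panels). Points are libraries, left point replicate 1 and right point replicate 2, and the bar is the mean of the group. Cdkn1a steps down from WT LSK to Ripk3-KO LSK, Cdkn1c is low in LK, and Cdkn2a and Cdkn2b are at or near 0.

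The other CIP/KIP genes did not pass the test in LSK cells. Cdkn1c, which encodes p57 (chr7:143458339-143461050, minus strand, overlapped by the antisense gene Gm44732), had a signal of 12.7 and 16.8 in WT LSK and 22.4 and 29.3 in Ripk3-KO LSK. Both Ripk3-KO libraries lay above both WT libraries, and the log2 fold change was 0.77 (95% interval -0.42 to 1.96, adjusted p = 0.50 from limma). Cdkn1b, which encodes p27 (chr6:134920401-134925513, plus strand), had a signal of 14.9 and 26.6 in WT LSK and 16.2 and 24.6 in Ripk3-KO LSK. The groups overlap, and the log2 fold change was 0.00 with a 95% interval from -0.99 to 1.0.

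Among the INK4 genes, Cdkn2c and Cdkn2d were measured well enough to be tested, and neither passed. Cdkn2d, which encodes p19Ink4d (chr9:21288410-21291407, minus strand), had a signal of 12.1 and 11.8 in WT LSK and of 2.81 and 8.31 in Ripk3-KO LSK. Both Ripk3-KO libraries were lower, but they differ from each other by more than the nearer of them differs from WT, and the log2 fold change was -1.12 (95% interval -2.27 to 0.03, adjusted p = 0.29 from limma). Cdkn2c, which encodes p18Ink4c (chr4:109660876-109667189, minus strand), had a signal of 17.7 and 36.5 in WT LSK and of 24.9 and 23.8 in Ripk3-KO LSK. Its Ripk3-KO libraries lay between the 2 WT libraries, and the log2 fold change was -0.06 (95% interval -0.86 to 0.73).

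Cdkn2a and Cdkn2b stayed below the minimum in every comparison and have no test. Cdkn2a (chr4:89274471-89294653, minus strand) had 14 and 0 reads in WT LSK, 0 and 2 in Ripk3-KO LSK, 0 and 13 in WT LK, and 7 and 0 in Ripk3-KO LK. Each group holds 1 library at 0, and the highest signal was 1.39. The value per gene does not separate p16Ink4a from p19Arf, which share the locus in different reading frames. Cdkn2b (chr4:89306299-89311039, minus strand), which encodes p15Ink4b, had 1 read in WT LSK replicate 2 and 0 reads in the other 7 libraries. A count of 0 allows up to 3 reads, or 0.186 to 0.311 signal by library, so that a difference between groups was not detectable at this depth. That limit covers counting error only.

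The retinoblastoma genes did not pass the test in LSK cells either. Rb1 (chr14:73183673-73325822, minus strand) had a signal of 3.87 and 14.6 in WT LSK and of 19.1 and 20.2 in Ripk3-KO LSK. Both Ripk3-KO libraries were higher, while the WT libraries lay far apart, and the log2 fold change was 1.25 (95% interval 0.17 to 2.32, adjusted p = 0.21 from limma). Without WT LSK replicate 1 it was 0.41, and without WT LSK replicate 2 it was 2.09. Rbl1 (chr2:157145893-157204534, minus strand) was at 85.0 and 89.5 in WT LSK and at 106 and 109 in Ripk3-KO LSK, a small and even step with a log2 fold change of 0.30 (95% interval -0.16 to 0.76). Rbl2 (chr8:91070057-91123844, plus strand) was at 55.5 and 48.0 in WT LSK and at 74.8 and 33.5 in Ripk3-KO LSK, so that 1 Ripk3-KO library lay above and 1 below WT. Rb1, Rbl1 and Rbl2 each overlap genes on the opposite strand.

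Over the 8 genes tested in LSK cells, 4 were higher and 4 lower in Ripk3-KO, with a median log2 fold change of -0.02 beside -0.01 over all genes. The groups did not overlap for 5 of 8 genes (Cdkn1a, Cdkn1c, Cdkn2d, Rb1 and Rbl1), where 44.6% of all genes tested did not overlap, so that this share is near the background. A fold change of at least 2 with no p, which 18.2% of all genes reached, was seen for 3 of 8, namely Cdkn1a, Cdkn2d and Rb1.

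In LK cells none of the 8 genes passed limma's test between genotypes, where 0.473% of 13949 genes did. At an unadjusted p under 0.05 there were 3 (Cdkn1a, Cdkn1c and Rbl2) beside 6.56% of all genes, edgeR called 1 (Cdkn1c) beside 0.430%, and DESeq2 called 2 (Cdkn1a and Cdkn1c) beside 1.24%. Cdkn1a had a signal of 103 and 86.5 in WT LK and of 49.2 and 63.8 in Ripk3-KO LK. Both Ripk3-KO libraries lay below both WT libraries, as in LSK, and the log2 fold change was -0.74 (SE 0.21, 95% interval -1.17 to -0.30, adjusted p = 0.20 from limma, 0.04998 from DESeq2). The fold change of Cdkn1a in LSK minus that in LK was -0.58 (95% interval -1.20 to 0.04, adjusted p = 0.53 from limma), so that the effects in LSK and LK were not shown to differ.

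Cdkn1c was close to the floor in LK cells. It had 21 and 36 reads in WT LK (1.43 and 2.75 signal) and 3 reads in each Ripk3-KO LK library (0.190 and 0.186 signal). Per unit of depth, WT LK held 10.8 times the reads of Ripk3-KO LK, with a 95% interval of 4.68 to 30.7 that covers counting error only. On the log2(signal + 1) scale, which understates the change of low genes, the difference was -1.34 (95% interval -2.52 to -0.16, adjusted p = 0.63 from limma). The tests on reads passed the threshold, with adjusted p = 0.0497 from edgeR and 0.0051 from DESeq2. Cdkn1c was therefore higher in both Ripk3-KO libraries in LSK and lower in both in LK. The difference of these effects was 2.12 (95% interval 0.44 to 3.79) with adjusted p = 0.38 from limma, 0.079 from edgeR and 0.0052 from DESeq2. No gene of the 10 passed limma's test of that difference, which 0.358% of 15901 genes passed, and 1 of 8 (Cdkn1c) had an unadjusted p under 0.05 beside 10.1% of all genes. DESeq2 called 1 (Cdkn1c) beside 1.06% of all genes, and edgeR called 0 beside 0.340%.

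The other 6 genes tested did not pass in LK cells by limma, edgeR or DESeq2. Rbl2 was at 47.3 and 34.0 in WT LK and at 64.6 and 68.6 in Ripk3-KO LK, a log2 fold change of 0.72 (95% interval 0.05 to 1.38, adjusted p = 0.69 from limma). Both Ripk3-KO libraries were higher. Rb1 was at 11.3 and 9.92 in WT LK and at 22.5 and 13.1 in Ripk3-KO LK, a log2 fold change of 0.65 (95% interval -0.42 to 1.73). Cdkn2d (-0.22), Cdkn2c (0.19), Cdkn1b (-0.24) and Rbl1 (0.08) lay within 0.25 of no change on the log2 scale, and the widest of their intervals, that of Cdkn2d, ran from -1.36 to 0.93. Between LK genotypes, 6 of 8 genes did not overlap beside 40.0% of all genes, and 1 of 8 (Cdkn1c) reached a 2-fold change beside 5.91%.

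**Figure D2:**
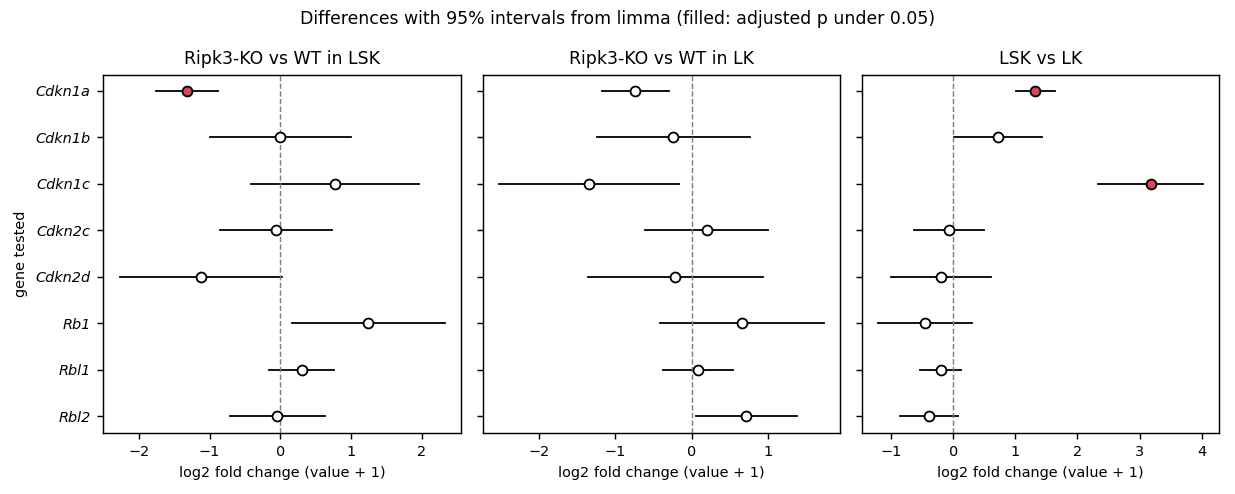
Log2 fold change of the 8 genes tested, with 95% intervals from limma, for Ripk3-KO against WT in LSK, for Ripk3-KO against WT in LK and for LSK against LK (both genotypes averaged); filled points have an adjusted p under 0.05. Cdkn1a is the only filled point between genotypes, at -1.32 in LSK, and Cdkn1a and Cdkn1c are filled at 1.32 and 3.18 between LSK and LK.

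Cells of the stem cell gate were then compared with the committed progenitors, on reads scaled over all 8 libraries together. Cdkn1a and Cdkn1c were higher in LSK than in LK, and the other 6 genes tested did not pass. That is 2 of 8 called as higher, beside 13.7% of the 15757 genes tested, while 34.0% were called in either direction. Cdkn1a was at 321 and 335 in WT LSK, 146 and 118 in Ripk3-KO LSK, 117 and 97.6 in WT LK, and 55.9 and 73.1 in Ripk3-KO LK on this scale. Every LSK library lay above every LK library, although Ripk3-KO LSK replicate 2 and WT LK replicate 1 differ by less than 1 unit. The difference was 1.32 on the log2 scale (SE 0.15, 95% interval 1.0 to 1.63, adjusted p = 5.3e-07 from limma). It was 1.61 within WT (adjusted p = 1.1e-05) and 1.03 within Ripk3-KO (adjusted p = 0.0013) in the same fit.

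Cdkn1c was higher in LSK than in LK by more than any other of the 8 genes tested. It was at 11.2 and 14.7 in WT LSK and 19.9 and 25.7 in Ripk3-KO LSK, and at 1.63 and 3.10 in WT LK and 0.216 and 0.213 in Ripk3-KO LK. No LSK library overlaps an LK library. The log2 difference was 3.18 (SE 0.41, 95% interval 2.33 to 4.02, adjusted p = 2.3e-06 from limma), and it was 4.28 within Ripk3-KO (adjusted p = 9.9e-06) and 2.08 within WT (adjusted p = 0.013). The WT call was lost without WT LK replicate 1 (adjusted p = 0.13) and without WT LSK replicate 2 (adjusted p = 0.073). Within each genotype the 2 called genes of the 10 were again Cdkn1a and Cdkn1c, beside 9.16% of all genes called as higher in WT (23.9% in either direction) and 7.95% in Ripk3-KO (20.2%).

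Cdkn1b was at 13.1 and 23.4 in WT LSK and 14.3 and 21.6 in Ripk3-KO LSK, against 13.4 and 9.39 in WT LK and 13.4 and 6.47 in Ripk3-KO LK. The lowest LSK library lay below both upper LK libraries, so that the populations overlap, and the log2 difference was 0.72 (95% interval 0.02 to 1.42, adjusted p = 0.11 from limma). On the values as deposited, where LSK and LK were scaled separately, it was 1.06 with adjusted p = 0.020. That scaling moved the median of all genes from 0.07 to 0.39 on the log2 scale, and the split of calls from 2164 higher and 3187 lower to 3890 higher and 1473 lower.

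The INK4 and retinoblastoma genes showed no call between LSK and LK. The log2 differences were -0.06 for Cdkn2c (95% interval -0.63 to 0.50), -0.19 for Cdkn2d (-1.0 to 0.61), -0.45 for Rb1 (-1.20 to 0.30), -0.20 for Rbl1 (-0.53 to 0.13) and -0.39 for Rbl2 (-0.86 to 0.08). Those of Cdkn2c, Cdkn2d and Rbl1 turned positive on the values as deposited, and that of Cdkn2c also with edgeR and DESeq2. The libraries of the populations overlapped for all 5 genes. Rbl2 passed the test without Ripk3-KO LSK replicate 1 (-0.67, adjusted p = 0.019 from limma), the library with the highest Rbl2 in LSK. Over the 8 genes the median was -0.13, beside 0.07 over all genes and -0.179 over the 10700 genes with a mean of at least 5. Between populations 2 of 8 did not overlap, beside 28.0% of all genes.

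Levels of different genes were set side by side per kilobase of exon, on the scale over all 8 libraries. In LSK cells Cdkn1a stood first, with a median of 65.8 over 4 libraries (33.2 to 94.3), and it did not overlap with Rbl1, the next gene, at 14.4 (12.4 to 16.0). Then came Cdkn1c at 8.48 (5.47 to 12.6), Cdkn2c at 7.98 (5.78 to 11.9), Rbl2 at 6.01 (3.88 to 8.77), Cdkn2d at 5.60 (1.58 to 6.76), Cdkn1b at 3.94 (2.87 to 5.13) and Rb1 at 2.47 (0.565 to 2.94), each of which overlaps with its neighbors. The place of Cdkn1c rests on the Ripk3-KO libraries, at 9.74 and 12.6, since WT LSK, at 5.47 and 7.22, lay among the values of Cdkn2c and Cdkn2d. Cdkn2a had a median of 0.0730 (0 to 1.04) and Cdkn2b was listed at 0 in 3 of 4 libraries.

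In LK cells Cdkn1a again had the highest median, 24.0 (15.7 to 33.0), but overlapped with Rbl1 at 16.7 (14.2 to 18.2). Rbl1 did not overlap with Cdkn2c at 8.43 (7.92 to 9.43), which overlapped with Rbl2 at 8.42 (5.08 to 10.4). Cdkn2d followed at 5.26 (4.26 to 5.61), which overlapped with Rbl2 but lay apart from Cdkn1b at 2.50 (1.42 to 2.94). Rb1 at 2.32 (1.86 to 4.25) overlapped with Cdkn1b, and its highest library all but reached the lowest of Cdkn2d. Cdkn1c stood below Rb1 in LK, at 0.452 (0.105 to 1.52). Cdkn2a at 0.215 (0 to 0.955) had a lower median but overlapped with Cdkn1c, and Cdkn2b was at 0.

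Of the reads on the 7 inhibitor genes, Cdkn1a held most in every library. Its share was 86.2% (exact 95% interval 85.1 to 87.2%) and 80.6% (79.4 to 81.8%) in WT LSK, and 71.3% (69.7 to 73.0%) and 61.0% (58.9 to 63.0%) in Ripk3-KO LSK. In LK it was 72.2% (70.2 to 74.1%) and 69.2% (66.9 to 71.4%) in WT, and 55.5% (52.9 to 58.1%) and 64.6% (62.2 to 67.0%) in Ripk3-KO. In each population both Ripk3-KO libraries lay below both WT libraries. Except in WT LK, the replicates of a group differ by more than either of their intervals is wide. The intervals cover counting error only, and the share is not corrected for gene length.

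The genes whose levels followed Cdkn1a most closely over the 8 libraries were Ibsp, Metrnl and Gadd45b. Likeness was measured as the root mean square difference of log2(value + 1) after centering each gene, and was 0.16 for Ibsp, 0.18 for Metrnl and 0.23 for Gadd45b beside a median of 0.98 over all genes. Gadd45b, a gene of the stress response, was at 189 and 265 in WT LSK, 76.4 and 95.1 in Ripk3-KO LSK, 77.4 and 80.5 in WT LK, and 35.2 and 58.6 in Ripk3-KO LK. Like Cdkn1a it was highest in both WT LSK libraries and lowest in both Ripk3-KO LK libraries. Such likeness follows from the way these genes were picked and is a description only. Ibsp is low, from 0 to 5.0 in all libraries. The nearest to Cdkn1c were Trim47 (0.40), Islr (0.44) and Ly6d (0.49), beside a median of 1.75 over all genes. Trim47 was at 54.6 to 92.0 in the LSK libraries, 11.2 and 11.0 in WT LK and 5.84 and 5.41 in Ripk3-KO LK.

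For the other genes tested the nearest profiles were Bmp3, Klc4 and BC024571 for Cdkn1b (0.19 for each), AK016244, Ankrd26 and Taf11 for Cdkn2c (0.098 to 0.12), and Vwa3a, 1810014B01Rik and Idi1 for Cdkn2d (0.19 to 0.21). For the retinoblastoma genes they were Col4a3bp, Zkscan6 and Btd for Rb1 (0.18 to 0.31), Sdcbp, Tceal8 and Arhgap21 for Rbl1 (0.076 to 0.087), and Strn, Pik3r4 and 4930444A02Rik for Rbl2 (0.14 to 0.18). Col4a3bp, likewise picked for its likeness, was lowest in WT LSK replicate 1 as Rb1 was, at 5.23, and between 17.0 and 29.7 in the other 7 libraries.

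The E2F targets, which lie downstream of the retinoblastoma proteins, were then compared between LSK and LK. Most of the 17 E2F target genes tested serve DNA replication and nucleotide supply. Of the 17, 13 were lower in LSK, 0 were higher and 4 did not pass, where 34.0% of all genes were called in either direction. The median log2 difference was -0.84 beside 0.07 over all genes. The median of all genes depends on the filter. Over the 10700 genes with a mean of at least 5 it was -0.179. Of these 4809 were called, 1563 as higher in LSK and 3246 as lower. Those figures also stand beside the lists below. On the values as deposited 10 were lower and 0 higher. Rrm2, a subunit of ribonucleotide reductase, was at 110 to 163 in the 4 LSK and 452 to 580 in the 4 LK libraries, a log2 difference of -1.75 (SE 0.14, adjusted p = 1.3e-09 from limma). Mcm5 (-1.31) and Mcm2 (-1.19), subunits of the replicative helicase, and Cdt1 (-1.18), which loads that helicase, were lower as well. For Rrm2, Mcm5, Mcm2 and Cdt1, all LSK libraries lay below all LK libraries.

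Of 12 cyclins and CDKs, 6 were lower in LSK, 1 was higher and 5 did not pass, with a median of -0.46. Over all genes 34.0% were called in either direction. Ccne1, the cyclin that p21 and p27 restrain at the entry into S phase, was at 9.64 to 17.5 in LSK and at 45.8 to 75.8 in LK (log2 difference -2.12, SE 0.24, adjusted p = 4.4e-07 from limma). Ccnb1 (-1.5), the cyclin of mitosis, and Ccna2 (-0.64), that of S phase and G2, were lower too, although Ccna2 did not pass on the values as deposited (-0.27, adjusted p = 0.095). Ccnd1 (1.12, adjusted p = 0.023 from limma), a D-type cyclin, was the 1 that was higher, at 11.1 to 24.9 in LSK and 4.56 to 11.0 in LK, where the highest LK library nearly reached the lowest LSK library. The call was lost without WT LSK replicate 2, Ripk3-KO LSK replicate 2, WT LK replicate 2 or Ripk3-KO LK replicate 1 (adjusted p up to 0.12). On the values as deposited, 2 were called higher and 2 lower, so the count of this list turns on the scaling.

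Of 17 E2F, DP and DREAM factors, 7 were lower in LSK, 1 was higher and 9 did not pass, with a median of -0.59. Again 34.0% of all genes were called in either direction. Mybl2, the B-Myb of cycling cells, was at 15.7 to 43.2 in LSK and 125 to 163 in LK (-2.37, adjusted p = 1.6e-08 from limma). Tfdp1 (-1.77), the DP partner of E2F factors, was lower as well. E2f1, an activating E2F, was called lower (-1.06), but by genotype it was at 14.9 and 11.6 in WT LSK against 120 and 38.7 in WT LK (-2.29), and at 32.0 and 27.7 in Ripk3-KO LSK against 22.9 and 30.5 in Ripk3-KO LK (0.17, adjusted p = 0.83 from limma). Without WT LK replicate 1 the call was lost (-0.66, adjusted p = 0.10). E2f5 (1.11), an E2F bound by p130, was called higher, a call that was lost without any 1 of 5 libraries (WT LSK replicate 2, Ripk3-KO LSK replicate 2, either WT LK library or Ripk3-KO LK replicate 2, adjusted p up to 0.17). On the values as deposited, 5 were called higher and 4 lower.

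Of 23 regulators of the inhibitors, 5 were higher in LSK, 5 lower and 13 did not pass, a share of calls near that of all genes (34.0%), with a median of -0.03, and on the values as deposited 6 were higher and 1 lower. Kdm6b, a demethylase of repressed chromatin that acts at the Cdkn2a locus, was at 125 to 158 in LSK and at 26.4 to 50.3 in LK (1.89, adjusted p = 1.0e-08 from limma). Foxo1 (1.33), a factor that can activate Cdkn1b, was higher in LSK. Cbx7 (1.32), a Polycomb protein that silences Cdkn2a, was called higher, with 18.0 and 8.27 in WT LSK overlapping 6.27 and 15.4 in WT LK, and with 2.36 within Ripk3-KO. The call was lost without WT LSK replicate 1, WT LK replicate 1 or Ripk3-KO LK replicate 1 (adjusted p up to 0.074). Gfi1 (-1.49), a transcriptional repressor, was called lower, by -2.94 within WT, while Ripk3-KO LSK, at 30.5 and 23.5, lay within the range of Ripk3-KO LK, at 18.5 and 40.7. Of 10 senescence-associated genes tested, 3 were higher in LSK (Gdf15 by 2.65, Hmga2 by 2.0 and Cxcl2 by 0.66). Lmnb1 (-1.57) was lower and 6 did not pass, with a median of 0.65. This share of calls is also near the 34.0% of all genes. The call of Cxcl2 was lost without WT LK replicate 1 or Ripk3-KO LK replicate 2 (adjusted p up to 0.077). Gdf15, a secreted stress cytokine, was at 22.2 to 76.7 in LSK and 2.38 to 11.4 in LK. Lmnb1, the lamin that is lost in senescent cells, was at 26.3 to 45.7 in LSK and 75.1 to 114 in LK.

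Within each genotype the E2F targets gave 12 of 17 lower in LSK and 0 higher in WT, and 12 of 17 lower and 0 higher in Ripk3-KO. On the values as deposited, 9 were lower in WT and 7 in Ripk3-KO, with 0 higher in each. Over all genes, 23.9% were called in either direction in WT and 20.2% in Ripk3-KO, which also stands beside the counts below. Cyclins and CDKs gave 4 of 12 lower in WT and 6 of 12 lower in Ripk3-KO, with 0 higher in each. These counts turn on the scaling, since as deposited 1 was higher and 2 lower in each genotype. Of the E2F, DP and DREAM factors, 6 of 16 were lower in WT and 5 of 17 in Ripk3-KO. As deposited, 1 was higher and 4 lower in WT, and 2 higher and 2 lower in Ripk3-KO. Of the regulators, 2 were higher and 2 lower in WT, where Smad4 (1.12), the mediator of TGF-beta signals, was higher and Cks1b (-0.62), which takes part in the destruction of p27, was lower. Each of these calls was lost in 3 of 4 fits that left out a WT library, that of Smad4 in all but the one without WT LSK replicate 1 (adjusted p up to 0.11) and that of Cks1b in all but the one without WT LSK replicate 2 (up to 0.22). In Ripk3-KO 4 regulators were higher and 1 lower. As deposited, 7 were higher and 0 lower in Ripk3-KO, and 3 higher and 1 lower in WT. Among the 4 was Trp53, which encodes p53, at 11.8 and 16.0 in Ripk3-KO LSK and 1.73 and 4.34 in Ripk3-KO LK (1.95, adjusted p = 0.019 from limma). Trp53 was at 4.79 and 4.36 in WT LSK and 3.64 and 4.05 in WT LK. The call within Ripk3-KO was lost without Ripk3-KO LSK replicate 1, Ripk3-KO LSK replicate 2 or Ripk3-KO LK replicate 1 (adjusted p up to 0.19).

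**Figure D3:**
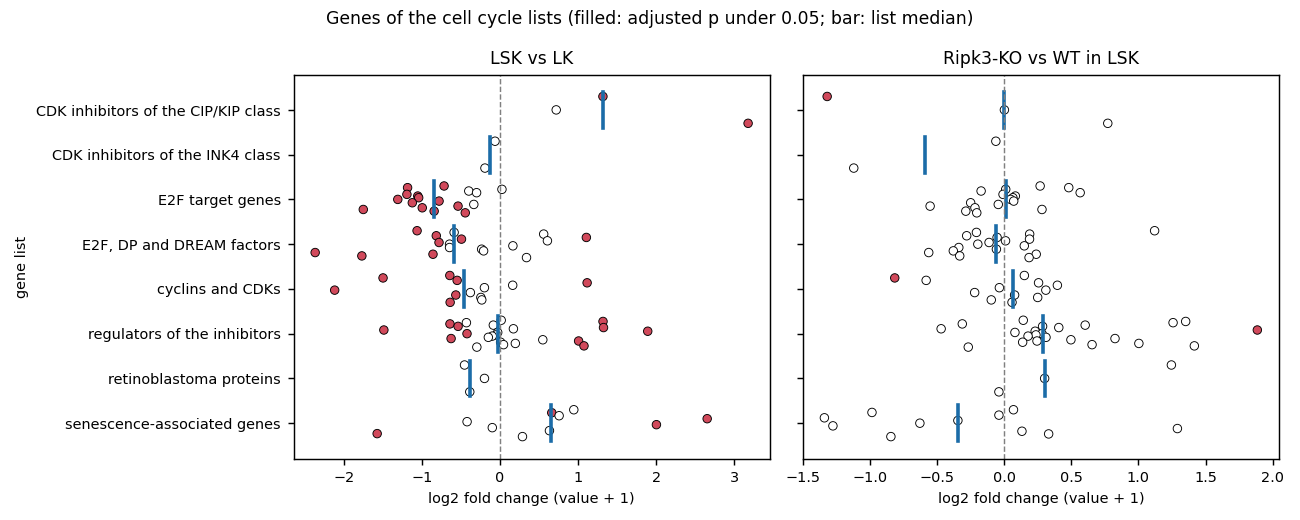
Log2 fold change of each gene tested in the 8 lists, for LSK against LK (left) and for Ripk3-KO against WT in LSK (right); filled points have an adjusted p under 0.05 from limma and the bar is the median of the list. E2F targets lie mostly left of 0 between LSK and LK, with 13 of 17 filled and a median of -0.84, and around 0 between genotypes, where 0 of 17 are filled.

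Between genotypes few genes of the same lists passed limma's test, while the medians differed between lists. In LSK cells, 0 of 17 E2F targets and 0 of 17 E2F, DP and DREAM factors passed limma's test, with medians of 0.01 and -0.06. At an unadjusted p under 0.05 there were 3 targets and 1 factor, edgeR called 0 of either list, and DESeq2 called 1 target and 0 factors. Over all 16817 genes tested these counts were 3011, 237 and 652. Of the 12 cyclins and CDKs, Ccnb1 was lower in Ripk3-KO LSK (142 and 128 in WT, 84.1 and 69.0 in Ripk3-KO, a log2 change of -0.82 with SE 0.20, limma adjusted p = 0.031), and the other 11 did not pass. Both Ripk3-KO libraries were below both WT libraries, and the call was lost whichever of the 4 LSK libraries was left out (adjusted p from 0.057 to 0.17). Of the 23 regulators, Gfi1 was higher in Ripk3-KO LSK, at 34.4 and 26.9 against 5.36 and 10.4 in WT (1.89, SE 0.43, adjusted p = 0.024 from limma), a call that was also lost without any 1 LSK library (adjusted p from 0.071 to 0.17). Gfi1 represses Cdkn1a in other systems and is expressed in neutrophil precursors. The neutrophil markers given above rose in Ripk3-KO LSK and also in Ripk3-KO LK. In LK, Gfi1 was at 70.5 and 35.9 in WT and at 16.3 and 35.5 in Ripk3-KO. Cdkn1a was lower in both Ripk3-KO LK libraries, without passing limma's test. The part of the markers in the level of Gfi1 was not tested, nor was that of Gfi1 in the level of Cdkn1a. Of the 23 regulators, 20 were higher and 3 lower in Ripk3-KO LSK, with a median of 0.29 beside -0.01 over all genes. An unadjusted p under 0.05 was reached by 7 of them, beside 3011 of the 16817 genes tested.

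Of the 11 senescence-associated genes tested in LSK cells none passed limma's test, with a median of -0.35 beside -0.01 over all genes. An unadjusted p under 0.05 was reached by 2, edgeR called 0 and DESeq2 called 2. Over all 16817 genes these counts were 3011, 237 and 652. Gdf15 was at 73.8 and 87.3 in WT LSK and at 25.1 and 38.5 in Ripk3-KO LSK (-1.34, adjusted p = 0.12 from limma). Cxcl2 was at 74.3 and 84.1 against 37.9 and 41.1 (-0.99, adjusted p = 0.080 from limma). These are the 2 genes that DESeq2 called (adjusted p = 0.046 for Gdf15 and 0.010 for Cxcl2). In other limma settings Gdf15 passed in a fit of LSK libraries alone (adjusted p = 0.041), and Cxcl2 with median-centred libraries (0.048). Pcna (-0.55, adjusted p = 0.092 from limma), the sliding clamp of replication, had the smallest p of the E2F targets, and E2f1 (1.12, adjusted p = 0.15 from limma) that of the E2F factors. Pcna passed with DESeq2 (adjusted p = 0.024) and with limma on median-centred libraries (0.048).

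In LK cells 1 list gene passed limma's test, where 0.473% of all genes did. Cxcl2, a neutrophil-attracting chemokine of the senescence-associated list, was at 38.7 and 48.6 in WT LK and at 17.2 and 16.0 in Ripk3-KO LK (-1.33, SE 0.29, adjusted p = 0.036). The call was lost without any 1 of the 4 LK libraries (adjusted p from 0.25 to 0.30). For the other lists in LK the counts were 0 of 17 E2F targets, 0 of 12 cyclins and CDKs, 0 of 17 E2F, DP and DREAM factors, and 0 of 23 regulators, with medians between -0.14 and 0.03. At an unadjusted p under 0.05 these lists held 0, 0, 1 and 3 genes, edgeR called 0 in each, and DESeq2 called 1 of the E2F, DP and DREAM factors and 0 in the others. Over all genes these shares were 6.56%, 0.430% and 1.24%.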

How the data were processed

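RNA was sequenced from sorted LSK and LK cells of WT and Ripk3-KO mice with a stranded mRNA kit. The submitters' processing notes name TopHat and mm9, and the counting tool is not given in the sources used here. The deposited column is headed FPKM, but 100% of the values above 0 are whole multiples (tolerance 0.01) of 1 step per library, so that the signal deposited by the authors is CPM scaled by TMM within each population, with no division by length. Tests planned for FPKM were kept for this signal.

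limma 3.58.1 (lmFit, eBayes with trend, two-sided) was fitted to log2(signal + 1) with 4 group means over 8 libraries. Genes with a mean of at least 1 in the libraries compared were tested and called at an adjusted p under 0.05. LSK and LK were compared on reads scaled together over 8 libraries. Alternatives used edgeR 4.0.16, DESeq2 1.42.0, other pseudocounts, filters, scalings, single libraries left out and a replicate block. The fits were tested on simulated counts. These were scaled over all 8 libraries, gave each unchanged gene the same mean in LSK and LK, and held few changed genes. The tests between genotypes used the deposited values, so the simulated shares need not hold for them. Of genes given a true 2-fold change there, 13.1% were called between genotypes in LSK and 18.2% in LK. A gene that did not pass may therefore still differ. The 10 genes and the lists were chosen with earlier results of these data known. All 10 genes are named in each comparison, and of each list up to 4 called genes with the largest change, or else up to 2 with the smallest p. Positions come from GENCODE M21 (GRCm38), since the deposited values have none, and promoters from RefSeq. BLAST 2.17.0 found near-identical transcripts (90% over 200 bases) for these genes only in the genes that overlap them.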

Additional observations from a re-analysis of the deposited data

Results flagged for a closer look

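The effect of genotype differed between LSK and LK for Gfi1 (log2 fold change in LSK minus that in LK 2.92, adjusted p = 0.032 from limma), which was higher in both Ripk3-KO LSK libraries, while in LK it was at 70.5 and 35.9 in WT and at 16.3 and 35.5 in Ripk3-KO. The difference kept its sign when any library was left out, but the call was lost in 6 of 8 such fits, all but those without WT LK replicate 2 or Ripk3-KO LK replicate 2 (adjusted p from 0.018 to 0.44). It was also lost with edgeR (adjusted p = 0.072), with a pseudocount of 0.1 (0.056) and with no filter (0.34). Ripk3 itself also differed (-2.40, adjusted p = 0.034 from limma), since Ripk3-KO LK retained more of its reads than Ripk3-KO LSK.

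For Cdkn1c both Ripk3-KO libraries lay above both WT libraries in LSK and below both in LK, and neither effect passed limma's test (adjusted p = 0.50 in LSK and 0.63 in LK). The difference of the effects was 2.12 on the log2 scale and did not pass limma's test (adjusted p = 0.38). With 2 libraries in each group no library could be examined as an outlier.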

How the results depend on the processing

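With 2 libraries per group an interval on a log2 fold change is wide, and low genes are limited by depth. The number of the 10 genes called stayed within 1.5 times its value in most settings. Exceptions were a fold change of at least 2 with no p (3 in LSK and 1 in LK between genotypes, and 1 for the difference of effects), edgeR (1 in LK) and DESeq2 (2 in LK and 1 for the difference). With single libraries left out the counts ran from 1 to 1 in LSK, from 0 to 0 in LK and for the difference, from 2 to 3 for LSK against LK, from 1 to 2 within WT and from 2 to 3 within Ripk3-KO. Cdkn1a in LSK stayed called in all alternatives run, with adjusted p from 0.011 to 0.049 with a library left out. Of 678 alternative values of the 8 genes tested, 629 kept direction and side of the threshold. Of the others, 2 lost a call, 8 gained one and 39 changed sign, and each that changed sign was uncalled. Of 1211 values of list genes, 98 lost a call, 10 gained one and 2 changed sign. With no filter, calls were lost for Ccnd1 (adjusted p = 0.075), E2f5 (0.090), E2f1 (0.057), Cbx7 (0.073), Trp53 within Ripk3-KO (0.072), Cks1b within WT (0.061), and Ccnb1 (0.065) and Gfi1 (0.097) between genotypes in LSK and Cxcl2 (0.17) in LK. On the values as deposited E2f1 (0.063) and Cks1b within WT (0.31) were lost, and with median-centred libraries E2f5 (0.054) and Cxcl2 (0.055) between LSK and LK. Cdkn1c in LK could not be tested without WT LK replicate 2 or at a mean of at least 5, since it fell below the minimum.

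The sign changes were these. Between genotypes in LSK, Cdkn1b was -0.0302 with edgeR, -0.0549 with DESeq2 and -0.11 with median-centred libraries, and Rbl2 was 0.059 with edgeR and 0.0405 with DESeq2. For LSK against LK, Cdkn2c was 0.0246 with edgeR, 0.0294 with DESeq2 and 0.29 on the values as deposited, where Cdkn2d was 0.13 and Rbl1 0.17. Within WT, Cdkn2c was -0.0503 with median-centred libraries, Rbl2 was 0.0229 with edgeR, 0.0349 with DESeq2 and 0.35 as deposited, and Rbl1 was 0.0578 as deposited. Within Ripk3-KO as deposited, Cdkn2c was 0.16, Rb1 0.18 and Rbl1 0.28. With single libraries left out, values in LSK ran from -0.40 to 0.40 for Cdkn1b, -0.56 to 0.44 for Cdkn2c and -0.61 to 0.53 for Rbl2. In LK they ran from -0.71 to 0.23 for Cdkn1b, -0.0739 to 0.23 for Rbl1 and -0.0746 to 0.62 for Cdk6. For the difference of effects they ran from -0.23 to 0.71 for Cdkn1b, -0.76 to 0.25 for Cdkn2c, -0.25 to 1.43 for Rb1 and -2.01 to 0.14 for Igfbp7. For LSK against LK they ran from -0.31 to 0.19 for Cdkn2c and -0.50 to 0.12 for Cdkn2d. Within WT they ran from -0.43 to 0.57 for Cdkn2c, -1.56 to 0.0884 for Rb1 and -0.25 to 0.23 for Rbl2, and within Ripk3-KO from -0.54 to 0.19 for Rb1 and -0.20 to 0.0225 for Rbl1. The cause was not tested.

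Over all genes, calls between genotypes in LSK were 363 with limma, 237 with edgeR, 652 with DESeq2, 198 with no filter and 195 in a fit of LSK libraries alone, and from 99 to 191 without any 1 LSK library. In LK they were 66, with 170 from DESeq2, 125 in a fit of LK libraries alone, 9 with no filter, and from 13 to 101 with a library left out. For the difference of effects they were 57, with 169 from DESeq2, 3 with no filter and from 17 to 90 with a library left out. Whether same-numbered libraries are paired is not known. Their deviations correlated between -0.15 and 0.05, which cannot settle the question with 2 libraries per group. With the replicate block, calls in LSK were 317 and the 10 genes gave the same counts in each comparison (1 in LSK), while the call of Cxcl2 was lost in LK (adjusted p = 0.0503) and between LSK and LK within Ripk3-KO (0.0566). Crossed numbers in Ripk3-KO, chosen after seeing the data, gave 3196 calls between LSK and LK beside 2940 with the block and 3072 without.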
